A study of Arabidopsis thaliana with 3 samples.

Results

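Cytochrome P450s (gene names starting with CYP) and UDP-glycosyltransferases (UGTs) were examined in *Arabidopsis thaliana* seedlings under oxidative stress. A gene was taken where its description names either enzyme or its name starts with CYP or UGT and 2 or more digits follow. The rule took 39 of the 2762 genes of the deposited comparison of *dss1(I)* with WT. Of these, 3 (*CYP18-3*, *CYP19-1* and *CYP19-2*) are cyclophilins, which are peptidyl-prolyl isomerases that share only the letters CYP, and they were set aside. The other 36 genes comprise 25 P450 genes of 19 families and 11 UGT genes of 8 families. The TAIR10.1 annotation of the genome names 239 P450 genes in all. The deposited comparison holds 2762 genes, beside 27443 protein-coding genes in the genome. How many P450, UGT or listed genes it holds was not tested against that background.

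P450s are haem-containing monooxygenases that insert an oxygen atom into a small molecule, and in plants they build and break down hormones, sterols, pigments and defence compounds. UGTs move a sugar from a UDP-sugar to such a molecule, which changes its solubility, transport and activity. Plants hold large families of both, and flavonoid, glucosinolate and hormone pathways use enzymes of both. Both groups also contain genes known to respond to foreign chemicals and to oxidative stress.

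The *dss1(I)* line carries a 25 bp deletion made with CRISPR/Cas9 in *AtDSS1(I)*, 1 of 2 Arabidopsis genes for the small proteasome and DNA repair factor DSS1, and GEO's labels call it a knockdown. It is homozygous and was set against WT Columbia-0. Seedlings of both genotypes, grown for 14 days, spent 3 days on medium with 10 mM H2O2 before whole seedlings were frozen, and no unstressed library was part of the comparison. Each genotype is 1 library, made from RNA of 3 independent experiments, so the differences have no replicate check. A *dss1(V)* library with an 18 bp insertion in the paralogous gene was sequenced too and was not analysed here.

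The libraries held 11033843 (*dss1(I)*) and 9394592 (WT) reads on genes, of which the genes of the table took 9.49% in *dss1(I)*, against 10.7% in WT. *AtDSS1(I)* itself had 233 reads in *dss1(I)*, against 807 in WT, and *DSS1(V)* had 21 in *dss1(I)*, against 73 in WT. Of the organ marker lists, the table held 1 of 9 root genes (*PRP3*, 74 reads in *dss1(I)*, against 9 in WT), 0 of 10 leaf genes and 0 of 9 seed genes, so the make-up of the seedlings could not be read from it. In whole seedlings, fewer cells that express a gene and less RNA per cell cannot be told apart.

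The enzymes were first compared by sequence, since near-identical copies can exchange reads. Their proteins, translated from TAIR10.1, ranged from 442 to 572 residues, and no pair among the 36 reached 85% identity. The closest pair was *UGT78D2* and *UGT78D4* at 73.9%, followed by *CYP706A3* and *CYP706A7* at 71.5%. Of 36 genes, 27 had no stretch of 50 transcript bases that occurs elsewhere in the genome. Among the other 9, the share of such stretches was highest in *UGT76E9* (10.2%), *UGT73C3* (8.74%) and *CYP82C2* (6.72%), whose counts are the least certain in this respect. In addition, 5 genes (*CYP709B2*, *CYP71A13*, *CYP722A1*, *UGT73B1* and *UGT75C1*) overlap a gene on the opposite strand, and the library protocol as described does not mark strand.

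The haem-binding loop shows how these families differ. The P450 signature FxxGxRxCxG was found in 19 of 25 proteins, and a broader form, FxxGxxxCxG, chosen after the narrower search, in 23. The 3 CYP707A proteins and CYP710A1 matched only the broader form, while CYP705A12 and CYP82F1 matched neither. The coding stretches of the CYP707A loop and, for comparison, of CYP75B1 are given because these genes carry the largest fall of all and the largest fall among the flavonoid genes. Capitals mark the codon of the cysteine that binds the haem iron, and sequences are from RefSeq (TAIR10.1).
CYP707A2 (chr2:12495893-12495922, minus strand): ttcggaaatggagtgcactcaTGTccagga
CYP707A3 (chr5:18369223-18369252, minus strand): tttggtagtgggattcattctTGTccaggc
CYP707A4 (chr3:6674482-6674511, minus strand): tttggaagtggagttcatgctTGTcccggg
CYP75B1 (chr5:2562629-2562658, plus strand): ttcggagctgggaggagaatcTGTgccggt
Within the CYP707A loop, 24 of 30 bases were shared by *CYP707A3* and *CYP707A4*, the pair within a family whose ratios lay farthest apart.

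For the UGTs, the letters HCGWNS from the UDP-sugar binding region were found in 8 of 11 proteins and not in UGT72E2, UGT78D4 or UGT79B7. The stretch is given for a pair of one family that went opposite ways and for the most abundant UGT in WT, with capitals marking the cysteine codon.
UGT76E3 (chr3:17200724-17200741, minus strand): cacTGTggatggaactca
UGT76E9 (chr5:15159816-15159833, plus strand): catTGTggatggaactcg
UGT78D2 (chr5:5608128-5608145, minus strand): catTGTggatggaactcg
*UGT76E3* and *UGT76E9* share 16 of these 18 bases and their proteins are 58.5% identical over the whole length.

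Both enzyme groups held genes that were higher and genes that were lower in *dss1(I)*. Values are given as raw reads, as FPKM (reads per kilobase of gene, scaled to the library total) and as a log2 ratio of *dss1(I)* over WT, computed from the deposited scaled counts with 1 added. Where a gene had no raw read in a library, its scaled count there was set to 0, as for *CYP705A1* in WT. The 95% interval after a ratio is an exact interval for the ratio of the 2 counts, covers counting error only and compares the libraries, not the genotypes. By sign, 16 of the 36 genes were higher and 20 lower. A scaled count of at least 10 in 1 library was reached by 35, of which 15 had a ratio of at least 1 and 19 a ratio of -1 or below. The remaining enzyme gene, *CYP90B1*, lay just inside the limit. By the same limits and scaling, 48.1% of the 2620 genes of the whole table that passed were higher and 51% were lower. Of the P450 genes that passed, 12 were higher and 12 lower by sign, and of the UGT genes 3 were higher and 8 lower. The median UGT ratio was -1.18, against -1.02 for all genes of the table, while the P450 median fell in the gap between the directions and describes no gene. When the counts were scaled by the median ratio of the table instead, 15 enzymes were higher and 5 lower by these limits. That scaling raised the log2 ratios of the table's genes by a median of 1.02. The shares of the whole table under it were not computed, so these counts have no background beside them.

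These counts have to be read against the table, which holds only genes that its authors called. Direction also went with gene length in these libraries. Gene length is the deposited value, which is shorter than the span on the chromosome for enzymes with more than 1 exon. Among the 981 other genes within the length range of the enzymes, 61.5% were higher and 37.7% lower. Set against other called genes within 10% of each enzyme's length, 57.1% of the enzymes were lower and 47.5% of the others. For P450 genes these shares were 50% and 41.3%, and for UGT genes 72.7% and 61.1%. The UGT genes were the shorter group, with a median of 1739 bp, against 2102 bp for the P450 genes. These shares are near those of the other genes, so the direction of the groups is not a result about the enzymes, and the part that length plays in it was not tested.

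**Figure D1:**
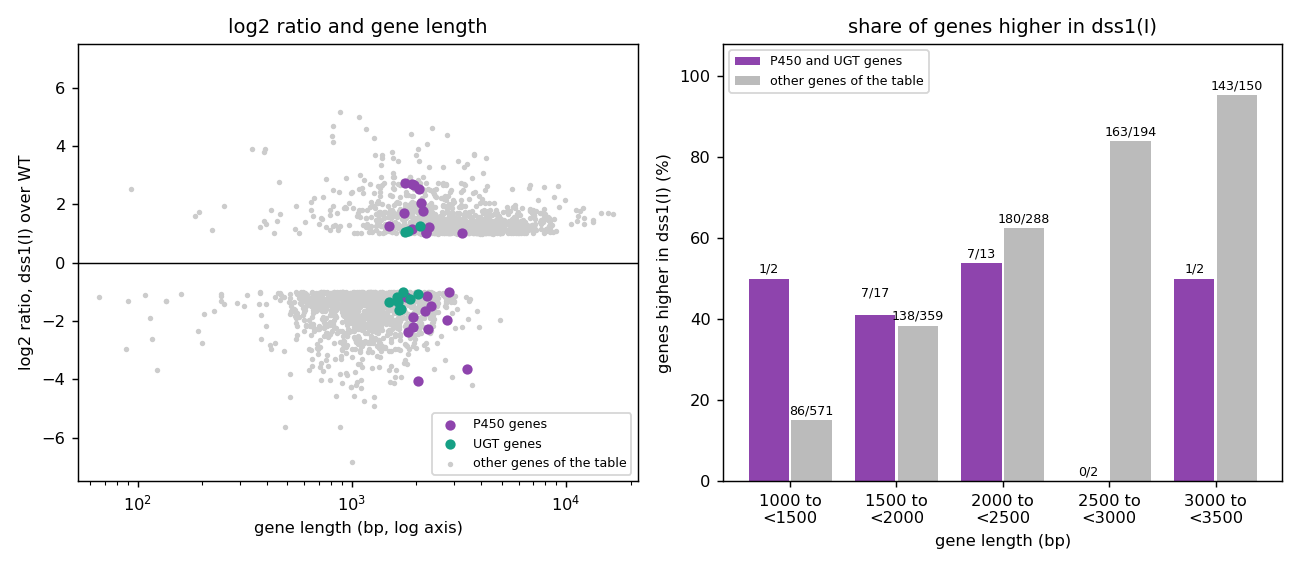
Left, log2 ratio of dss1(I) over WT against gene length (bp, log axis) for the 36 enzymes (P450 purple, UGT green) and for the other genes of the table that passed the limit of 10 scaled counts (grey). Right, percentage of genes higher in dss1(I) by gene length, for the enzymes (purple, all 36, counts above the bars) and the other genes (grey). Other genes ranged from 15.1% higher at 1000 to below 1500 bp to 95.3% at 3000 to below 3500 bp, while the enzymes were 7 of 17 higher at 1500 to below 2000 bp and 7 of 13 at 2000 to below 2500 bp.

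Counting error set the precision of single genes. The enzymes took 5562 reads, or 0.0504% of the library, in *dss1(I)*, against 6581, or 0.0701%, in WT, with medians of 49 reads per gene in *dss1(I)* and 51.5 in WT. The most reads fell on *CYP79F1* in *dss1(I)* (1118) and on *CYP81D8* in WT (1704), and 13 genes stayed under 50 reads in both libraries. For 13 of 36 genes the whole interval lay beyond a ratio of 1 in size, and for 23 it reached inside. The genes were called from these same counts, and the share among the other called genes was not counted, so this describes precision only. Of the 5 genes with ratios above 2, 4 had fewer than 20 reads in both libraries, whereas the falls of that size included genes with over 100 reads in WT.

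**Figure D2:**
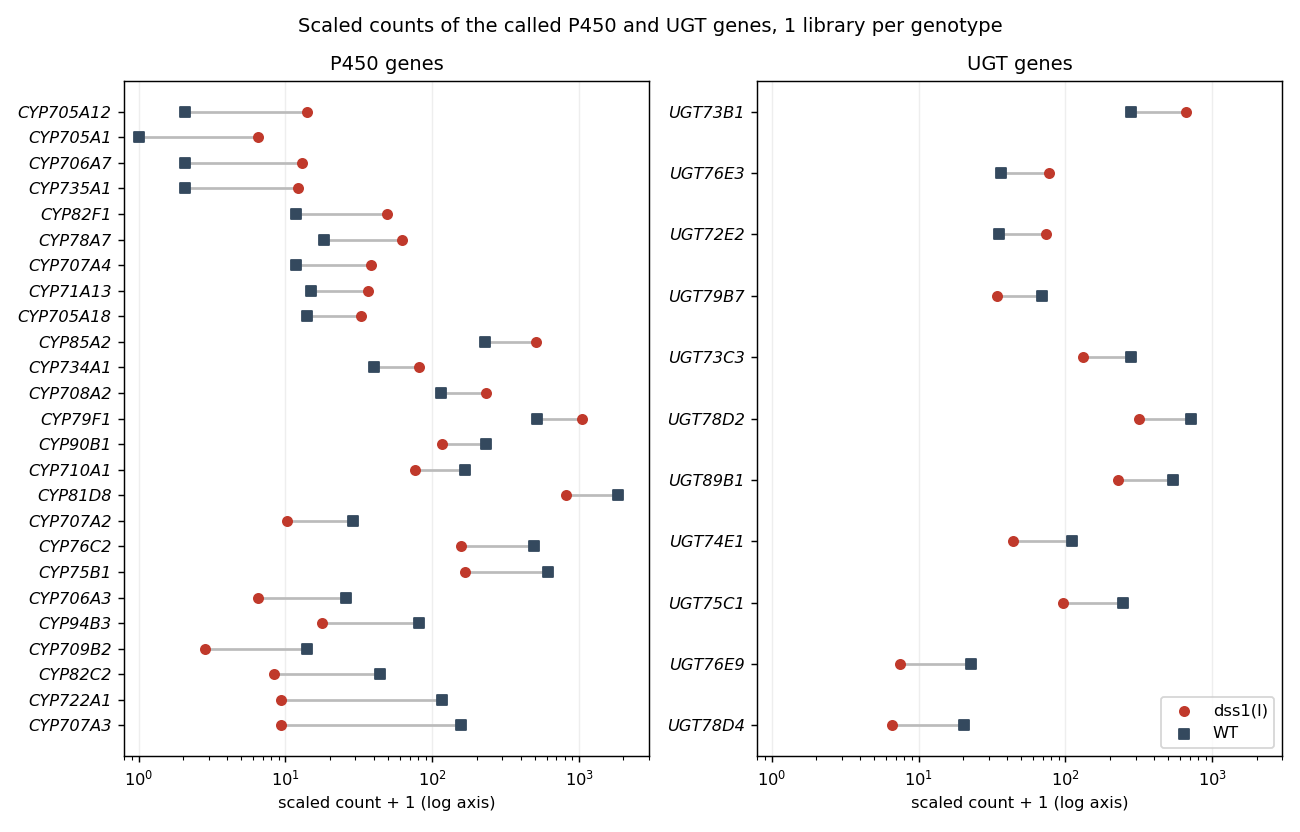
Scaled count plus 1 (log axis) of the 25 P450 genes (left) and 11 UGT genes (right) in the dss1(I) library (red circles) and the WT library (blue squares), 1 library per genotype, ordered by log2 ratio. CYP707A3 and CYP722A1 show the widest gaps, with dss1(I) at 8.34 scaled counts for each, and CYP705A1 has no read in WT.

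The largest change lay among the hormone genes, in the CYP707A family, whose members inactivate abscisic acid (ABA) by hydroxylation. *CYP707A3* (AT5G45340, chromosome 5, 18368532 to 18371021, minus strand) had 9 reads (0.399 FPKM) in *dss1(I)*, against 145 (7.56 FPKM) in WT. The ratio was -4.07 (from -5.40 to -3.28), the lowest of the 36. *CYP707A2* (AT2G29090) was lower as well, with 10 reads in *dss1(I)*, against 26 in WT, and a ratio of -1.50 (from -2.83 to -0.51). *CYP707A4* (AT3G19270) went the other way, with 40 reads (2.07 FPKM) in *dss1(I)*, against 10 (0.609 FPKM) in WT, and a ratio of 1.69 (from 0.74 to 2.93). The intervals of *CYP707A4* and *CYP707A3* do not meet, but both genes were called from these same counts, so this is no independent evidence of a difference. The 2 genes kept these directions under each scaling tried. The summed reads of the 3 genes were 59 in *dss1(I)*, against 181 in WT. The proteins are 60.6% (A2 and A3), 58.9% (A3 and A4) and 55.4% (A2 and A4) identical, and no stretch of 50 bases in any of them occurs elsewhere in the genome.

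The 250 bases upstream of each CYP707A gene are given because the family members differed most. Capitals mark matches, on either strand, to TTGACC or TTGACT (W box), TGACG (the core bound by TGA factors) and CACGTG (G box). The first and second of these share the letters TGAC but cannot match at the same TGAC on the same strand.
CYP707A2 (chr2:12499724-12499973, minus strand): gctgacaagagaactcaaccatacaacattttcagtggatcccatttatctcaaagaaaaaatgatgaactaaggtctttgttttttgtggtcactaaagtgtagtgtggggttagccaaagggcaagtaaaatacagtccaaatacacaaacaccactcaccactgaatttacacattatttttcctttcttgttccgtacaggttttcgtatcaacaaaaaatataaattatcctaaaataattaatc
CYP707A3 (chr5:18371022-18371271, minus strand): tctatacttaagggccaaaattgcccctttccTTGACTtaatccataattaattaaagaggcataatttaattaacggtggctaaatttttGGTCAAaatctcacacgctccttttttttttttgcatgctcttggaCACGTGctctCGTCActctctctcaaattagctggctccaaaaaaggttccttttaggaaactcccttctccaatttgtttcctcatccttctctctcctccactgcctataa
CYP707A4 (chr3:6676522-6676771, minus strand): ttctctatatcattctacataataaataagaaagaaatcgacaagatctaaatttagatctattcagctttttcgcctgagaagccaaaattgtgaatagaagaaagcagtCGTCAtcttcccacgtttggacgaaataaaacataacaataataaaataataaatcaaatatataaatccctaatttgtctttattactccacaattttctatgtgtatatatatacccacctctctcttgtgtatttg
*CYP707A3*, the gene with the largest fall, holds all 3 motifs in this window, *CYP707A4* holds TGACG and *CYP707A2* holds none. Over all 36 enzymes, the W box was found in 33.3% of such windows, against 28.4% of 27443 protein-coding genes. TGACG was found in 25% of the enzymes and 18.6% of all, and the G box in 13.9% and 6.49%. By direction, the W box was in 4 of 16 higher and 8 of 20 lower genes, TGACG in 4 of 16 and 5 of 20, and the G box in 1 of 16 and 4 of 20. Such a match is a description of letters and not a bound site.

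Brassinosteroid genes were divided between the directions. *CYP85A2* (AT3G30180), which carries out the last step to brassinolide, had 551 reads (26.1 FPKM) in *dss1(I)*, against 210 (11.7 FPKM) in WT, with a ratio of 1.17 (from 0.93 to 1.40). *CYP734A1* (AT2G26710), which inactivates brassinosteroids, was also higher, with 87 reads in *dss1(I)*, against 36 in WT, and a ratio of 1.04 (from 0.47 to 1.64). *CYP90B1* (AT3G50660, also called DWF4), an early and rate-setting hydroxylase of the pathway, had 124 reads (3.95 FPKM) in *dss1(I)*, against 214 (8.01 FPKM) in WT. Its ratio was -0.999 (from -1.35 to -0.69). This ratio turned to 0.020 when the counts were scaled by the median ratio of the table, which holds only called genes. That scaling raised the log2 ratios of the table's genes by a median of 1.02. A gene that makes the hormone and a gene that removes it thus stood above WT in the same library.

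The remaining hormone genes were of lower abundance. *CYP94B3* (AT3G48520), which hydroxylates the active jasmonate JA-Ile, had 18 reads (0.849 FPKM) in *dss1(I)*, against 74 (4.10 FPKM) in WT, with a ratio of -2.19 (from -3.10 to -1.51). *CYP78A7* (AT5G09970), a relative of the organ growth gene KLUH, had 66 reads (2.77 FPKM) in *dss1(I)*, against 16 (0.789 FPKM) in WT, with a ratio of 1.77 (from 1.01 to 2.70). *CYP735A1* (AT5G38450), which hydroxylates the cytokinin side chain, had 12 reads in *dss1(I)*, against 1 in WT, so that its ratio of 2.54 has an interval from 0.60 to 8.77. Of the 49 hormone genes listed, the table held 9, of which 5 were higher by a ratio of 1, 3 were lower by as much, and *CYP90B1* lay between. By these limits 48.1% of the table's genes were higher and 51% lower. Among other genes in the enzymes' length range, 61.5% were higher and 37.7% lower. The hormone counts are near these shares and are no result about the hormone genes. A gene closely tied to hormones, though in no list, is *CYP722A1* (AT1G19630, chromosome 1, 6783803 to 6788175, minus strand), a P450 of the strigolactone-related carlactonoic acid branch. It had 9 reads (0.237 FPKM) in *dss1(I)*, against 107 (3.31 FPKM) in WT, and its ratio of -3.64 (from -4.97 to -2.83) was the second lowest of the enzymes. Its deposited gene length is 3445 bp, at which only 3.70% of 189 other called genes were lower.

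**Figure D3:**
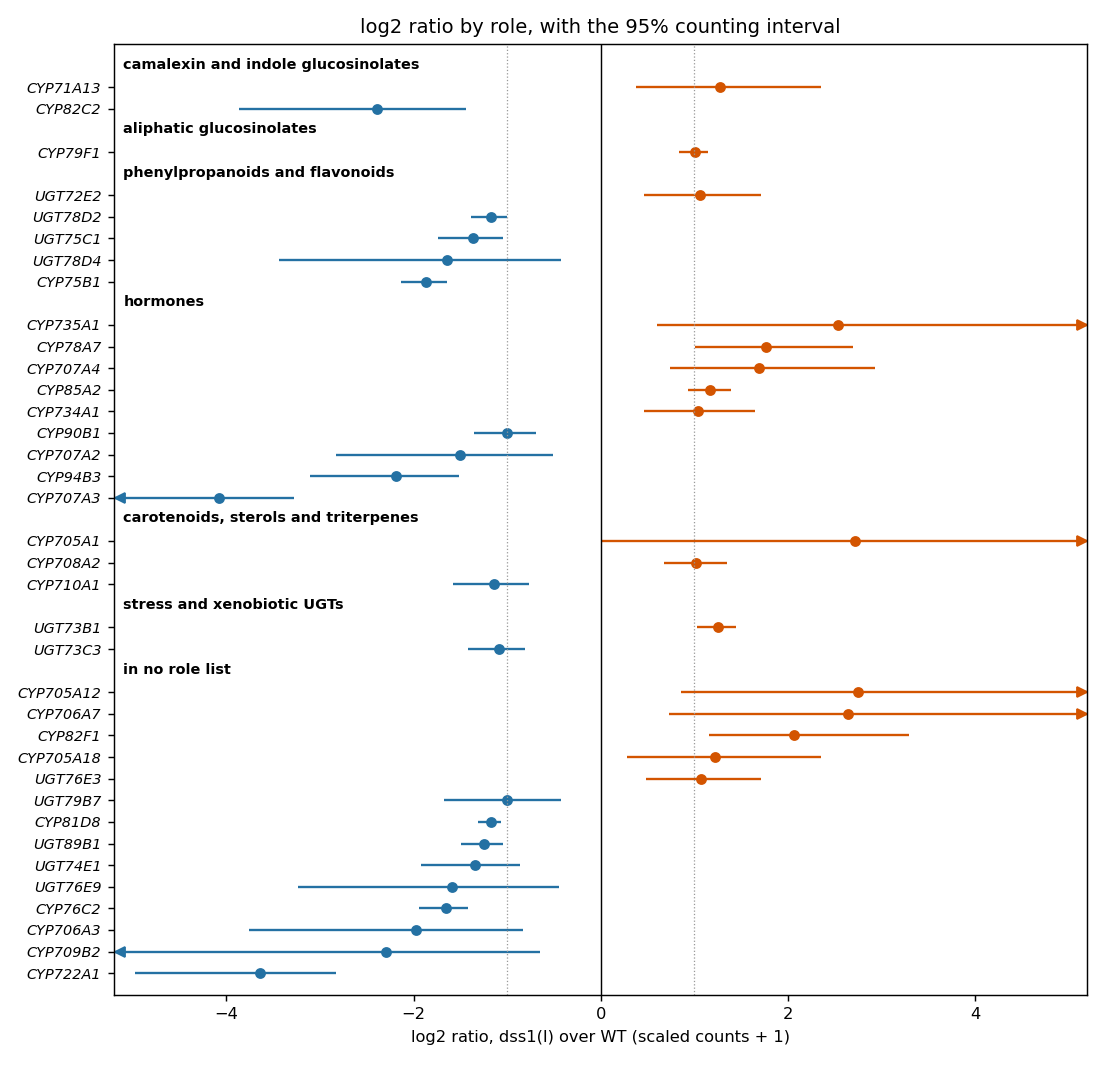
Log2 ratio of dss1(I) over WT (points, from scaled counts plus 1) with the exact 95% counting interval of the ratio (lines) for the 36 enzymes, grouped by role and coloured orange where higher and blue where lower in dss1(I). Dotted lines mark ratios of 1 and -1, and arrowheads mark intervals that run past the axis, as for CYP735A1 and CYP705A1. No interval crosses 0, in a set that holds only genes called from these same counts. Of the 5 phenylpropanoid and flavonoid genes, 4 lie below 0, and the 9 hormone genes lie on both sides.

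The flavonoid and anthocyanin enzymes in the table were lower in *dss1(I)*, as were 50.4% to 69.6% of other called genes of their lengths. *CYP75B1* (AT5G07990, chromosome 5, 2560328 to 2563137, plus strand), the flavonoid hydroxylase that leads to quercetin and cyanidin, had 179 reads (8.41 FPKM) in *dss1(I)*, against 564 (31.1 FPKM) in WT. Its ratio was -1.87 (from -2.14 to -1.64). The study chose this gene from these libraries for its lower level and also measured it by real-time PCR. Its authors state that the PCR profile matched the sequencing. Those PCR measurements were not analysed here. Because the gene was chosen from these libraries, its direction in them is not independent evidence. *UGT78D2* (AT5G17050), which adds glucose to flavonols and anthocyanidins, had 338 reads (18.9 FPKM) in *dss1(I)*, against 658 (43.2 FPKM) in WT, with a ratio of -1.18 (from -1.39 to -1.002). *UGT75C1* (AT4G14090), which glucosylates anthocyanins at a later step, had 102 reads (5.61 FPKM) in *dss1(I)*, against 227 (14.7 FPKM) in WT, with a ratio of -1.36 (from -1.74 to -1.04). The table also held *A3G2XYLT* (UGT79B1), an anthocyanin xylosyltransferase that the rule did not take, at 89 reads in *dss1(I)*, against 255 in WT.

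*UGT78D4* (AT5G17040), a homologue of *UGT78D2*, lies 659 bp away on the same strand of chromosome 5, and these were the only enzymes within 20 kb of each other. It had 6 reads in *dss1(I)*, against 18 in WT, with a ratio of -1.64 (from -3.44 to -0.42). The longest stretch that the transcripts of this pair share is 50 bases, and 2.86% of the stretches of that length in *UGT78D4* occur elsewhere in the genome. *UGT78D2* has 1 such stretch, so nearly all of those in *UGT78D4* match other places than *UGT78D2*. *UGT89B1* (AT1G73880), a flavonol glucosyltransferase, was lower too, with 243 reads (11.7 FPKM) in *dss1(I)*, against 499 (28.3 FPKM) in WT, and a ratio of -1.25 (from -1.50 to -1.05). The 5 lower enzymes of this group, *CYP75B1*, *UGT78D2*, *UGT75C1*, *UGT78D4* and *UGT89B1*, kept their direction under each scaling tried, but under the median-ratio scaling their ratios lay between -0.85 and -0.15. Of 22 listed phenylpropanoid and flavonoid P450 and UGT genes, 5 were matched by gene name. *A3G2XYLT*, listed as UGT79B1, was not matched, and *UGT89B1* is in no list. The exception among the 5 was *UGT72E2* (AT5G66690), which glucosylates lignin precursors. It had 79 reads (4.04 FPKM) in *dss1(I)*, against 32 (1.92 FPKM) in WT, with a ratio of 1.06 (from 0.46 to 1.71).

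Other genes of the pathway were looked up by gene name alone, so genes that the table holds under other names are missed. Of 23 listed phenylpropanoid and flavonoid symbols that are neither P450 nor UGT, some of them alternative names of 1 gene, 2 were found, both lower. *CHS*, chalcone synthase at the entry to the pathway, had 5080 reads in *dss1(I)*, against 10995 in WT, and *LDOX*, which makes anthocyanidins, had 516 in *dss1(I)*, against 1452 in WT. At 1500 to below 2000 bp, the length of *CHS*, 61.6% of the other genes were lower. At 1000 to below 1500 bp, the length of *LDOX*, the share was 84.9%. These directions are thus near the background. Like *CYP75B1*, *LDOX* was chosen from these libraries by the study, which also measured it by real-time PCR. Of 15 glutathione S-transferase genes in the table, which are the usual partners of these enzymes in detoxification, 15 were lower by sign and 14 passed the limits, with a median ratio of -1.30. They include *GSTF12*, which carries anthocyanins towards the vacuole, at 277 reads in *dss1(I)*, against 1166 in WT. These transferases are short, from 760 to 1201 bp, and most of them fall in the same length range as *LDOX*. No P450 reductase or cytochrome b5, the electron donors of the P450s, was in the table.

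Glucosinolate and camalexin genes went in both directions. *CYP79F1* (AT1G16410), which starts aliphatic glucosinolate synthesis from chain-elongated methionine, had 1118 reads (31.0 FPKM) in *dss1(I)*, against 479 (15.6 FPKM) in WT, with a ratio of 1.00 (from 0.84 to 1.15). Its deposited gene length is 3272 bp, at which 94.3% of 194 other called genes were higher. *CYP71A13* (AT2G30770), of the camalexin pathway, had 38 reads (2.31 FPKM) in *dss1(I)*, against 13 (0.926 FPKM) in WT, with a ratio of 1.27 (from 0.38 to 2.35). *CYP82C2* (AT4G31970), which hydroxylates an indole defence compound, had 8 reads in *dss1(I)*, against 40 in WT, with a ratio of -2.39 (from -3.86 to -1.44). Of 13 other listed genes of these pathways, *GGP1*, which processes glutathione conjugates, had 2030 reads in *dss1(I)*, against 3559 in WT, and *FMO GS-OX2*, which oxidises the side chain of aliphatic glucosinolates, had 178 in *dss1(I)*, against 318 in WT. *CYP79F1* and *FMO GS-OX2*, both of the aliphatic branch, thus stood on opposite sides.

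Triterpene and sterol genes were few. *CYP708A2* (AT5G48000), which hydroxylates the triterpene thalianol in roots, had 248 reads (10.15 FPKM) in *dss1(I)*, against 105 (5.05 FPKM) in WT, with a ratio of 1.02 (from 0.67 to 1.35). *CYP705A1* (AT4G15330), which cleaves the root triterpene arabidiol, had 6 reads in *dss1(I)*, against 0 in WT. Against a floor of 3 reads in the WT library, and with its 6 reads taken as exact, its FPKM was at least 1.70-fold higher in *dss1(I)*. The counting interval of its log2 ratio runs from 0.0036 with no upper limit, so that counting error alone leaves nearly equal levels possible, and it was the gene that did not reach 10 scaled counts. *CYP710A1* (AT2G34500), which makes stigmasterol from sitosterol, was lower, with 81 reads (3.27 FPKM) in *dss1(I)*, against 155 (7.35 FPKM) in WT, and a ratio of -1.14 (from -1.57 to -0.77).

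The other *CYP705* genes were also higher. *CYP705A18* (AT3G20090) had 34 reads in *dss1(I)*, against 12 in WT, with a ratio of 1.22 (from 0.29 to 2.36). *CYP705A12* (AT5G42580), which lies in the gene cluster for the triterpene marneral, had 14 reads in *dss1(I)*, against 1 in WT, with a ratio of 2.75 (from 0.86 to 8.98). The family together had 54 reads in *dss1(I)*, against 13 in WT. It was the only family with more than 1 gene in which each stood above WT, and its 3 genes lie on different chromosomes. Of other called genes of similar length, 37.3% were higher for *CYP705A12* and 63.8% for *CYP705A18*. *CYP705A1* did not pass the filter. With so few genes and reads, the shared direction is no result about the family.

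Stress and xenobiotic enzymes included the P450 gene with the highest FPKM and the UGT gene with the highest FPKM in *dss1(I)*. *CYP81D8* (AT4G37370), known to be induced by foreign chemicals, had 879 reads (44.5 FPKM) in *dss1(I)*, against 1704 (101 FPKM) in WT, with a ratio of -1.17 (from -1.31 to -1.07). *UGT73B1* (AT4G34138) had 659 scaled counts (30.95 FPKM) in *dss1(I)*, against 277 (13.1 FPKM) in WT, with a ratio of 1.25 (from 1.03 to 1.45). *UGT73C3* (AT2G36780), from the same family, had 130 scaled counts (6.26 FPKM) in *dss1(I)*, against the same 277 (13.5 FPKM) in WT, with a ratio of -1.09 (from -1.42 to -0.81). The UGT73 family is known for glucosylation under stress, and its 2 called genes had the same count in WT and stood on opposite sides of it. When the counts were scaled by the median ratio of the table, *UGT73C3* came to -0.069 and *UGT73B1* to 2.27. *CYP76C2* (AT2G45570), of a family that oxidises monoterpenols, had 168 reads (6.91 FPKM) in *dss1(I)*, against 457 (22.1 FPKM) in WT, with a ratio of -1.65 (from -1.94 to -1.42).

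Opposite directions also occurred inside families. Of 7 families with 2 or more called genes, 5 had members on both sides of WT, which is no result about the families in a table where 48.1% of genes were higher and 51% lower. Besides CYP707 and UGT73 these were CYP706, CYP82 and UGT76. *CYP706A3* (AT5G44620), which oxidises terpenes in flowers, had 6 reads in *dss1(I)*, against 23 in WT, with a ratio of -1.98 (from -3.76 to -0.83). Its homologue *CYP706A7* (AT4G12330), the closest P450 relative in the set, had 13 reads in *dss1(I)*, against 1 in WT, with a ratio of 2.65 (from 0.73 to 8.88). *CYP82F1* (AT2G25160) had 52 reads (2.24 FPKM) in *dss1(I)*, against 10 (0.506 FPKM) in WT, with a ratio of 2.06 (from 1.15 to 3.29), against the fall of *CYP82C2*, to which its protein is 44.6% identical. *UGT76E3* (AT3G46700) had 82 reads (4.05 FPKM) in *dss1(I)*, against 33 (1.92 FPKM) in WT, with a ratio of 1.07 (from 0.48 to 1.71). *UGT76E9* (AT5G38010) had 7 reads in *dss1(I)*, against 20 in WT, with a ratio of -1.59 (from -3.23 to -0.45). In each of these pairs the intervals of the members lie on opposite sides of 0. Only genes called from these same counts are in the table, so this is no independent evidence that the members differ. The lower member of CYP706 and UGT76 and the higher member of CYP706 rest on 23 reads or fewer.

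The last 3 genes were lower. *UGT74E1* (AT1G05675), a relative of an enzyme that glucosylates an auxin precursor, had 46 reads in *dss1(I)*, against 102 in WT, with a ratio of -1.35 (from -1.92 to -0.87). *UGT79B7* (AT4G09500) had 36 reads in *dss1(I)*, against 63 in WT, with a ratio of -1.004 (from -1.67 to -0.43), and it stood at 0 when the counts were scaled by the median ratio of the table. *CYP709B2* (AT2G46950) had 2 reads in *dss1(I)*, against 12 in WT, with a ratio of -2.29 (from -6.02 to -0.65). No gene of the 13 listed for wax, cutin, suberin and pollen wall was in the table. Clans are the broad groups of related P450 families. By sign, the CYP71 clan had 8 genes higher and 5 lower, and the CYP85 clan 3 higher and 4 lower. The CYP72 clan had 2 higher and 1 lower. Of all called genes, 48.6% were higher by sign and 51.4% lower. Both directions within each of these 3 clans are therefore no result about the clans.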

How the data were processed

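Poly-A RNA of *dss1(I)* and WT seedlings was compared, 1 library per genotype. Per the authors, reads passed through fastp, HISAT2 (TAIR10 genome) and featureCounts for gene counts. The deposited raw counts are whole numbers without normalization. The deposited scaled counts are a signal, obtained by the authors through an edgeR scaling factor per library. The deposited FPKM values divide counts by gene length and library total. The deposited log2 fold changes, p-values and adjusted p-values are the authors' own comparison and were not used. The table holds only genes the authors called, so every count of genes describes a selected set. Of the per-sample columns, 0 were left unused.

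The log2 ratio was log2((scaled *dss1(I)* + 1)/(scaled WT + 1)), and genes were counted where a scaled count reached 10 in 1 library and the ratio reached 1 in size. Deposited scaled counts were replaced by 0 where the raw count was 0. With 1 library per genotype no test across genes was made. Exact Clopper-Pearson 95% intervals of the ratio of counts used the library totals behind the FPKM values. PCR copies were not told apart by molecular identifiers, and the intervals cover counting error only. The intervals were tested on simulated counts with counting error only, which is the setting they assume. The simulation had no calling step and no variation between seedlings, so it does not check the intervals of called genes. Members, role lists and comparisons were chosen with earlier results of these data known. Listed symbols were matched by gene name alone, so genes under other names are missed. Among genes with at least 20 reads in 1 library, the rule for named genes took the 8 largest rises and falls, the 3 P450 and 3 UGT genes with the highest FPKM, and, at any count, all genes of the role lists and *CYP75B1*. It named 31, and the other 5 were added for completeness after their values were seen. The listed symbols CHI and CCR1 belong in the table to a chitinase and a kinase and were left out. All 36 genes matched TAIR10.1 with the same start and end. Sequences were read from the RefSeq genome. Pseudocount, filter, scaling, threshold and length window were varied. Computations used scipy 1.17.1, Biopython 1.88, pandas 2.3.3, matplotlib 3.10.9 and numpy 2.4.6 under Python 3.11.15.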

Additional observations from a re-analysis of the deposited data

How the results depend on the processing

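No paired analysis was possible because *dss1(I)* and WT are 1 library apiece. Depth limits the 13 enzymes under 50 reads in both libraries, and calls at a minimum scaled count of 50 numbered 8 higher and 13 lower. At a limit of 2 on the log2 ratio, 4 enzymes were higher and 5 lower. Scaling by the median ratio of the table, which raised the median of all genes by 1.02, left 15 enzymes higher by a ratio of 1 and 5 lower, and moved the P450 median to 2.03. Under it *CYP90B1* turned to 0.020, *UGT79B7* stood at 0, and the other 34 enzymes kept their sign, among them *CYP75B1* at -0.85, *UGT75C1* at -0.34 and *UGT78D2* at -0.15. Equal table totals, a shift of 0.16, and library totals turned no sign. Without a filter the P450 median was 1.00, and at a minimum scaled count of 50 it was -1.14, so that its sign moved with the filter. Other pseudocounts turned no named gene. The share of enzymes lower, less that of other genes of similar length, was 9.66 percentage points. Under the alternatives it ran from 5.27 to 13.3 points. A binomial interval over the enzymes, from -8.13 to 26.2 points, treats genes as independent and is too wide to test whether this difference holds.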
